A study of Mus musculus with 19 samples.

Results

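The cortex libraries of a mouse tauopathy series were compared by how much choroid plexus RNA they held, with transthyretin (Ttr) as the measure. Ttr was expressed as counts per 1000000 reads on genes (CPM), and the classes were chosen by this value alone. A library was counted as holding choroid plexus at 1000 CPM or more, and as nearly free of it below 300 CPM. Of the 19 libraries, 15 were in the first class, 4 in the second and 0 between. Since Ttr of the same libraries set the classes, differences between the classes are given as a description: an adjusted p under 0.05 serves as a common rule for calling a gene, not as evidence for the split.

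All libraries came from frozen cortex of male P301S/E4 mice aged 41 weeks, P301S being a mutation of tau found in inherited tauopathy and E4 an isoform of apolipoprotein E. Mice of the lemborexant group, with 10 libraries, received this orexin receptor antagonist by gavage every day at 30 mg/kg from 7.5 to 9.5 months of age, at zeitgeber time 13. The vehicle group, with 9 libraries, received 0.5% methylcellulose on the same schedule. Both groups carried the same genotype, and the samples used here include no wild-type or untreated mice. The labels do not name the promoter of the tau transgene. They also do not tie libraries to individual mice, and p-values here cover the spread between libraries, which may in part be technical.

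The choroid plexus is a fringe of cuboidal epithelium around leaky capillaries and loose stroma that hangs into the brain ventricles. Its epithelium secretes most of the cerebrospinal fluid by moving ions and water from blood to ventricle, and it seals the path between the cells with tight junctions. Transthyretin, a carrier of thyroid hormone and of the retinol-binding protein, is its best known secreted product, and neurons and glia of the cortex make little of it. The plexus of the lateral ventricle lies close to the cortex and hippocampus, and a dissected cortex can carry some of it along.

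Library totals ranged from 20185098 to 31795633 estimated reads assigned to genes. Replicates 1 and 10, 3 and 8, and 4 and 9 of the lemborexant group were much more alike than any other libraries, the chi-square of their counts over its degrees of freedom being 3.08 to 3.66, and 12.2 or more in the other 168 pairs. Each pair was summed, which left 16 units: 7 lemborexant and 9 vehicle. The 12 units with choroid plexus were 6 lemborexant and 6 vehicle units, and the 4 nearly free of it were lemborexant 7 and vehicle 1, 3 and 5. Lemborexant 7 also stood apart in hypothalamic genes, whose summed level was 2960 CPM there and at most 46.8 CPM elsewhere. Vehicle 7 did so in hepatocyte genes, with 1898 CPM against at most 53.0 CPM. Its Ttr was at 5504 CPM, and whether all of this came from choroid plexus was not tested. Ribosomal RNA took 5.49 to 6.90% of the reads of lemborexant 6 and vehicle 3, 4 and 5, and 2.40 to 4.68% in the other units. This share counts nuclear and mitochondrial ribosomal RNA together.

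Ttr was at 68.0 CPM in lemborexant 7, 92.8 in vehicle 1, 21.4 in vehicle 3 and 91.9 in vehicle 5. In the 12 units with choroid plexus the lowest value was 1194 CPM, the median 5065 and the highest 10923. The classes were therefore far apart, the lowest unit of the upper class lying 12.9 times above the highest of the lower. Within the upper class Ttr still spanned 9.15-fold. The units just inside the threshold were vehicle 4 at 1194 CPM and lemborexant 6 at 1833 CPM, and the next above them was lemborexant 1 and 10 at 3337 CPM. The plot of Ttr by library shows the gap.

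**Figure D1:**
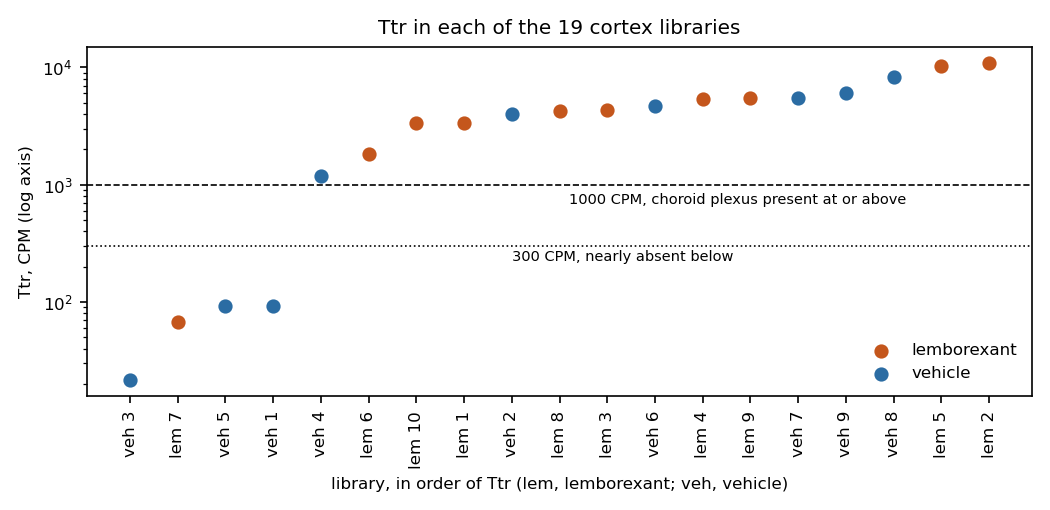
Ttr in CPM on a log axis for each of the 19 libraries, in order of level, with 1 point per library coloured by treatment and the 2 thresholds as lines. The 4 lowest libraries lie between 21.4 and 92.8 CPM, and vehicle 4 at 1194 CPM is the lowest of the other 15.

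The other 4 markers of choroid plexus epithelium were checked against this split. Folr1 (chr7:101858331-101870788, GRCm38), the folate receptor that loads folate into the cerebrospinal fluid, was at 1.83 CPM in lemborexant 7, 2.18 in vehicle 1, 0.819 in vehicle 3 and 0.704 in vehicle 5. It ranged from 5.85 to 93.3 CPM, with a median of 38.9, in the units with choroid plexus. The classes did not overlap for Folr1, and the fitted log2 difference was 4.83 ± 0.67 (SE). Kcnj13 (chr1:87386363-87394729), an inwardly rectifying potassium channel of the apical membrane, was at 3.01 CPM in lemborexant 7 and at 4.65, 0.468 and 0.219 CPM in vehicle 1, 3 and 5. Its median was 99.1 CPM with choroid plexus and its highest value 274 CPM, but lemborexant 6, at 4.43 CPM, lay below vehicle 1.

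Kl and Clic6 overlapped more. Kl (chr5:150952607-150993817), which encodes the hormone and co-receptor klotho, was at 4.80 to 11.5 CPM in the 4 units nearly free of choroid plexus, so that lemborexant 6 at 3.31 CPM lay below all 4 and vehicle 4 at 9.36 CPM below vehicle 1. The median with choroid plexus was 34.1 CPM. Clic6 (chr16:92485736-92541243), a chloride intracellular channel protein of the epithelium, was at 9.84 CPM in lemborexant 7 against 0.185 to 2.72 CPM in the other 3. That value exceeded 4 of the 12 units with choroid plexus, namely vehicle 2, vehicle 4, lemborexant 6 and the lemborexant pair 1 and 10. Of the 4 markers other than Ttr, which formed the classes, Folr1 separated them fully, while Kcnj13, Kl and Clic6 left 1 to 4 units of the upper class within the range of the lower. In whole tissue, fewer choroid plexus cells and less RNA per cell cannot be told apart.

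Across 20590 genes tested with treatment as a covariate (edgeR quasi-likelihood test, Benjamini-Hochberg adjustment), 16 were called higher with choroid plexus, 0.0777% of those tested, and 1 was called lower, 0.00486%. At an unadjusted p under 0.05 there were 648 higher (3.15%) and 703 lower (3.41%). Every unit with choroid plexus lay above every unit nearly free of it for 26 genes, 0.126% of those tested, and below for 1 gene, 0.00486%. Of the 16 called genes, 15 were among these 26. These calls rest on 4 units: 2 genes remained called without lemborexant 7 or without vehicle 3, 3 without vehicle 5, and 4 of the 5 called without vehicle 1 were among the 16. In the other direction, 37 were called higher without lemborexant 6 and 31 without vehicle 4, both including all 16. Leaving out the lemborexant pair 1 and 10 gave 18, lemborexant 2 gave 10, and each of the 8 other units with choroid plexus gave 5 or 6. Besides Ttr, which defines the classes, Wfdc2 was called in each of the 16 fits that left out 1 unit.

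Genes of 5 lists for choroid plexus epithelium, 59 in all and every one of them tested, were then taken by role. Of the 59, with Ttr included, 56 were fitted higher with choroid plexus, 40 of these at an unadjusted p under 0.05, and 8 were called. Their median log2 difference was 2.16, against -0.0026 over all genes tested, and 39 of the 59 were more than 2-fold higher, against 2.20% of all genes tested. These counts share the contrast that chose the libraries, and nothing further is read from them. The plot of list members shows how the choroid plexus lists compare with lists for other cells and regions.

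**Figure D2:**
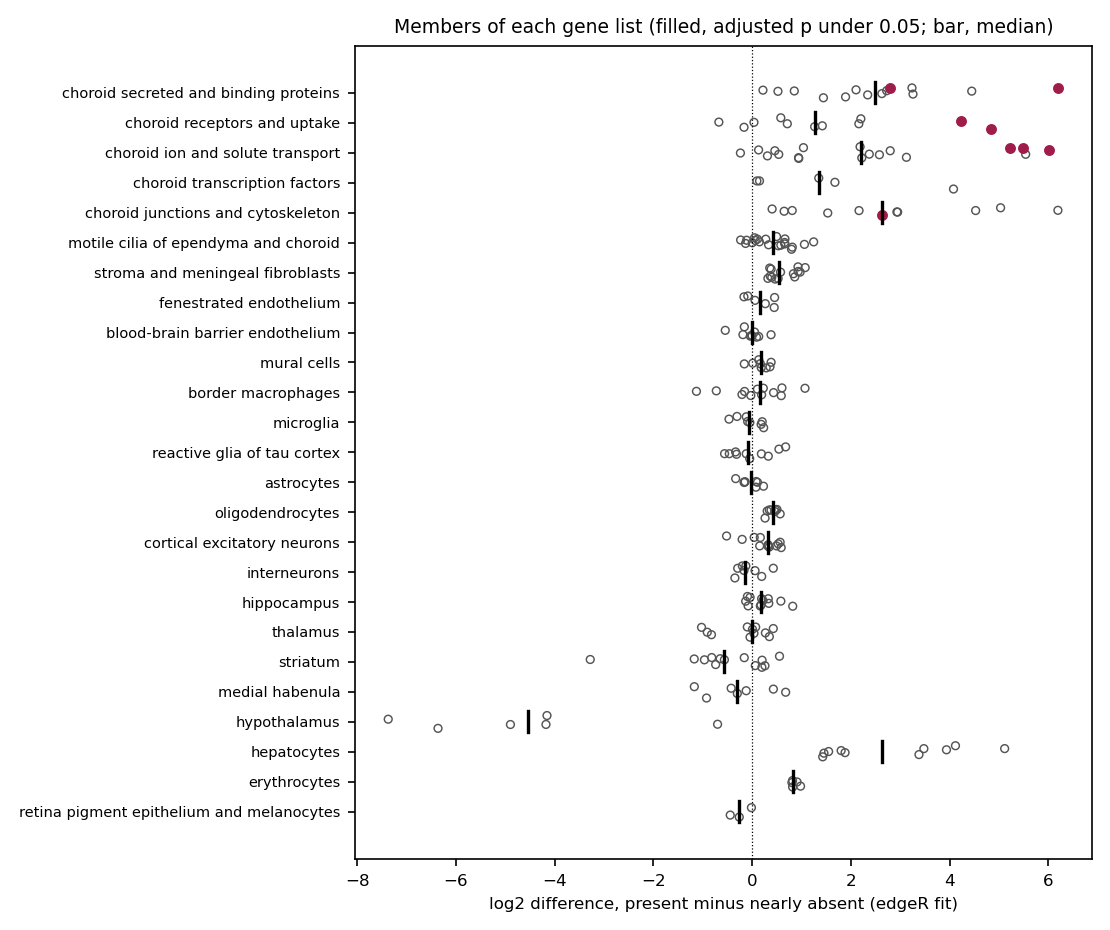
The log2 difference between units with and nearly without choroid plexus, from the edgeR fit, for each member of 25 gene lists. Points are genes, filled where the adjusted p was under 0.05, and bars are list medians. The choroid plexus lists have medians from 1.26 to 2.63, and the hypothalamus list, at -4.54, and the hepatocyte list, at 2.63, are the only others whose median exceeds 1 in size.

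Among 14 secreted and binding proteins all were fitted higher, 11 at an unadjusted p under 0.05 and 2 called, with a median log2 difference of 2.48. Besides Ttr, the called gene was 1500015O10Rik, which encodes the secreted peptide augurin. It was at 12.9 CPM in lemborexant 7, 3.17 in vehicle 1, 15.8 in vehicle 3 and 9.79 in vehicle 5, and at 21.3 to 161 CPM with a median of 74.9 in the other class. The classes did not overlap and the log2 difference was 2.79 ± 0.49. Enpp2, or autotaxin, the secreted enzyme that makes lysophosphatidic acid, was at 98.4 to 205 CPM without choroid plexus and at 182 to 3548 CPM with it, median 1650.1. It was not called (log2 3.24 ± 0.61, edgeR adjusted p = 0.0598), and vehicle 4 at 182 CPM lay within the range of the lower class. Oligodendrocytes also make Enpp2. Sostdc1, a secreted antagonist of BMP and Wnt ligands, was at 2.11 to 5.75 CPM against 3.48 to 76.2 CPM (adjusted p = 0.113). Igf2, Igfbp2 and the ferroxidase Cp had log2 differences of 1.44 ± 0.55, 0.52 ± 0.51 and 0.22 ± 0.33, none of them called.

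Among 11 receptors and uptake genes 9 were fitted higher, 5 at an unadjusted p under 0.05, and 2 were called: Folr1 and Steap1. Steap1 (chr5:5736317-5749326), a transmembrane protein of the metalloreductase family, was at 0.808, 0.545, 0.234 and 0.667 CPM in lemborexant 7 and vehicle 1, 3 and 5. Its range in the other class was 1.45 to 22.8 CPM, with no overlap, and the log2 difference was 4.23 ± 0.70. The prolactin receptor Prlr reached 45.6 CPM without choroid plexus, within the range of 2.52 to 119 CPM with it, and its log2 difference was 2.16 ± 0.86 (adjusted p = 0.704). Rdh5, a retinol dehydrogenase, was at 5.55 to 30.7 CPM against 10.9 to 99.5 CPM, with a log2 difference of 1.26 ± 0.39 (adjusted p = 0.459). Lrp2, the large endocytic receptor megalin, was the member fitted lowest, at 0.334 to 2.88 CPM against 0.130 to 1.70 CPM.

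Ion and solute transport was the longest role, with 17 of 18 members fitted higher, 13 at an unadjusted p under 0.05, 3 called and a median of 2.20. Slc4a5 (chr6:83219828-83304945), a sodium bicarbonate cotransporter of the apical membrane, was at 0.211 CPM in lemborexant 7, 0.050 in vehicle 1, 0 in vehicle 3 and 0.222 in vehicle 5. With choroid plexus it was at 0.605 to 19.9 CPM, median 8.42, and its log2 difference was 6.01 ± 1.0. Kcne2 (chr16:92292389-92298129), an accessory subunit of potassium channels, was at 0.984, 1.09, 0.312 and 0.0742 CPM in the same 4 units and at 3.17 to 60.5 CPM in the others (log2 5.48 ± 0.86). Aqp1 (chr6:55336432-55348555), the water channel through which much of the fluid passes, was at 0.0703 to 0.248 CPM against 0.435 to 14.4 CPM, a log2 difference of 5.22 ± 0.90. The classes did not overlap for any of these 3 genes.

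The transporters that were not called included genes shared with other brain cells. Atp1b1, a subunit of the sodium pump, was at 707 to 1080 CPM without choroid plexus and at 588 to 1142 CPM with it, with a log2 difference of 0.13 ± 0.13. Slc12a2, the sodium-potassium-chloride cotransporter, had 0.46 ± 0.29 and the organic anion transporter Slc22a8 had 0.31 ± 0.27. Kcnj13 had a log2 difference of 5.54 ± 1.04 and missed the threshold (adjusted p = 0.0598). The osmosensitive channel Trpv4 had 2.22 ± 0.55 (adjusted p = 0.249). The carbonic anhydrase Car12 overlapped too, at 5.90 to 32.5 CPM against 2.83 to 116 CPM.

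All 11 genes of junctions and cytoskeleton were fitted higher, 9 at an unadjusted p under 0.05, with a median of 2.63 and 1 call, Calml4, a calmodulin-like protein. Calml4 was at 5.20 CPM in lemborexant 7, 3.02 in vehicle 1, 0.897 in vehicle 3 and 1.07 in vehicle 5, and at 4.33 to 34.2 CPM in the other class. It was the only gene called higher whose classes overlapped, through the lemborexant pair 1 and 10 at 4.33 CPM. The tight junction genes Cldn2, which forms a pore for cations and water, and Cldn3 had log2 differences of 5.03 ± 0.96 and 6.19 ± 1.18, with adjusted p of 0.066 and 0.0598. Cldn2 was at 0.185 to 1.12 CPM without choroid plexus, and with it at 0.826 CPM in lemborexant 6, 1.17 in vehicle 4 and 12.3 to 40.0 in the other 10 units. The classes thus overlapped for Cldn2 through lemborexant 6, and the gap lay between those 10 units and the rest.

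Of 5 transcription factors all were fitted higher and 0 were called by edgeR at the adjusted threshold, 2 having an unadjusted p under 0.05. Otx2 (chr14:48657677-48673819), a homeobox factor required for choroid plexus development, was at 1.19 CPM in lemborexant 7, 0.991 in vehicle 1, 0.273 in vehicle 3 and 0.0742 in vehicle 5. In the other class it was at 0.739 CPM in lemborexant 6, 1.69 in vehicle 4 and 3.97 to 29.5 in the remaining 10 units, with a log2 difference of 4.08 ± 0.88 (adjusted p = 0.134). Msx1 had 1.35 ± 0.46, Lmx1a 1.68 ± 0.87, Otx1 0.15 ± 0.22 and Foxc1 0.10 ± 0.43.

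The 250 bases upstream of annotated starts were searched for 3 short motifs on both strands, since these genes move together with Ttr across units. RefSeq promoters (GRCm38.p6) were matched for 47 of the 59 genes. The Otx homeobox motif TAATCC was present for 5 of 47 genes, 10.6%, against 7.21% of 27025 genes. The LIM homeobox motif TAATTA was present for 3, 6.38% against 5.65%, and the forkhead motif TGTTTAC for 1, 2.13% against 3.54%. TAATCC and TAATTA share their first letters, TAAT, and can overlap. The sequences below are the upstream windows of Kcnj13 and of the first start of Kcne2, as 2 of the epithelial genes with the largest differences, and 1 of the windows of Otx2, chosen because it holds a match, in capitals. Each is written 5′ to 3′ on the strand of its gene.
Kcnj13, chr1:87394730-87394979, minus strand: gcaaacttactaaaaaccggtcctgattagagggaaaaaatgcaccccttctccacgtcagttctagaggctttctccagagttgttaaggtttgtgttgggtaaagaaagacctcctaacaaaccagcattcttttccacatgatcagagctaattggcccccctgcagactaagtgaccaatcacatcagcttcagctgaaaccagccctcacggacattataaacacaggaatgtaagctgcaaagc
Kcne2, chr16:92292139-92292388, plus strand: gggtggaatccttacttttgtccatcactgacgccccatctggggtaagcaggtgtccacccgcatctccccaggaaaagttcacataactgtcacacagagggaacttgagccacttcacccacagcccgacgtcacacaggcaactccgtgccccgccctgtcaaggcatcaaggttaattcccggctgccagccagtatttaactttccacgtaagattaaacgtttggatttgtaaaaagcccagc
Otx2, chr14:48667645-48667894, minus strand: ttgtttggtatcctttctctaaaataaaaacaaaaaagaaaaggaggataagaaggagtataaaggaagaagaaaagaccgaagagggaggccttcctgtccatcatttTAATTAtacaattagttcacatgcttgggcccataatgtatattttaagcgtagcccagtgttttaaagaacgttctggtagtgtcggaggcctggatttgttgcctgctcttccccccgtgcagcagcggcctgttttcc
The windows of Kcnj13 and Kcne2 shown here hold none of the 3 motifs, and the Otx2 window shown holds TAATTA. Another Otx2 window, chr14:48665110-48665359, is not shown. It holds TAATTA and also the Otx motif on the other strand, as GGATTA. A match or its absence describes these letters in this window only.

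Of the other 8 called genes, outside these lists, 5 had a mean of at least 1 CPM. Wfdc2 (chr2:164562413-164568510), a secreted protein with whey acidic protein domains, gave the smallest p of all genes. It was at 0.176 CPM in lemborexant 7, 0.198 in vehicle 1, 0.117 in vehicle 3 and 0.297 in vehicle 5, and at 2.83 to 15.7 CPM, median 6.79, with choroid plexus. The log2 difference was 5.18 ± 0.54 (edgeR adjusted p = 0.00058), with no overlap. Rrh, an opsin-like receptor first described in retinal pigment epithelium, was at 0 to 0.0703 CPM against 0.282 to 4.32 CPM (log2 5.39 ± 0.90). Defb11, a defensin of a family with many near copies, so that its reads may be shared, had 3.39 ± 0.59, and the non-coding genes 2900040C04Rik and 4933429O19Rik had 3.88 ± 0.58 and 5.88 ± 1.03. The remaining 3, below 1 CPM on average, were Ins2, Tcf21 and the antisense gene model Gm16090, named here after their values were seen. Gm16090 (chr18:20597964-20665260, minus strand) borders Ttr, which begins at chr18:20665280 on the plus strand. The strand setting was not given, and whether the reads of Gm16090 are separate from those of Ttr was not tested. Tcf21 was at 0 in all 4 units without choroid plexus and at 0.0435 to 0.904 CPM in the others. Rpe65, which defines retinal pigment epithelium, was at 0.351 to 0.858 CPM without and 0.221 to 1.04 CPM with choroid plexus.

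The single gene called lower was Calcr (chr6:3685680-3764714), the calcitonin receptor. It was at 21.97 CPM in lemborexant 7, 0 in vehicle 1, 3 and 5, and at most 0.479 CPM in the 12 other units. Calcr was thus high in 1 unit only, and it was not called in 14 of the 16 fits that left out 1 unit, all but those without lemborexant 6 or vehicle 4. Without lemborexant 7 it did not pass the expression filter. All 6 tested hypothalamic genes were fitted lower with choroid plexus, 5 at an unadjusted p under 0.05. Among them, Oxt, the oxytocin precursor, was at 156 CPM in lemborexant 7 and at most 0.920 CPM in the other 15 units, and Agrp at 28.8 CPM against at most 0.550 CPM. The summed level of the list in vehicle 1, 3 and 5 was at most 6.30 CPM.

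Genes of the other cells of a choroid plexus did not separate in the way the epithelial genes did. Among 14 genes of stroma and meningeal fibroblasts all were fitted higher with a median log2 difference of 0.55, but 0 were called by edgeR and 1 had an unadjusted p under 0.05. Their summed level was 112 to 250 CPM without choroid plexus and 158 to 681 CPM with it, so the ranges overlapped. Lum, a proteoglycan of connective tissue, was at 3.41 to 5.38 CPM against 4.76 to 17.1 CPM (log2 0.93 ± 0.31, adjusted p = 0.526). Of 6 genes of fenestrated endothelium, 4 were fitted higher, with a median of 0.16 and none with an unadjusted p under 0.05 by edgeR. Plvap, which forms the diaphragms of leaky capillaries, was at 12.2 to 19.6 CPM without and 13.8 to 17.4 CPM with choroid plexus.

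Cilia genes, which ependyma and choroid plexus share, were fitted higher for 17 of 20, with a median log2 difference of 0.41, 0 called by edgeR and 1 at an unadjusted p under 0.05. Foxj1, the master regulator of motile cilia, was at 6.01 CPM in lemborexant 7, 2.03 in vehicle 1, 2.81 in vehicle 3 and 2.63 in vehicle 5, within the range of 0.524 to 7.78 CPM of the other class. The summed level of the list was 288 CPM in lemborexant 7, at most 73.6 CPM in the other 3 units without choroid plexus, and 67.8 to 255 CPM with it. Border macrophages, which include those of the choroid plexus, had 7 of 12 genes fitted higher and a median of 0.15, with 0 at an unadjusted p under 0.05 in the edgeR fit.

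No cortical cell list had a median above 1 in size. Their median log2 differences were -0.07 for microglia, -0.09 for reactive glia, -0.03 for astrocytes, 0.42 for oligodendrocytes, 0.32 for cortical excitatory neurons and -0.15 for interneurons. Lists for neighbouring regions had medians of 0.18 for hippocampus, 0.01 for thalamus, -0.56 for striatum and -0.30 for medial habenula. Those for the vessels were -0.01 for barrier endothelium and 0.17 for mural cells. In lemborexant 7 the summed levels were 649 CPM for thalamus, 508 for striatum and 73.9 for medial habenula. The other units nearly free of choroid plexus had at most 192, 140 and 41.7 CPM. Lemborexant 7 was the lowest of that class for cortical excitatory neurons, at 424 CPM, and for hippocampus, at 84.2 CPM. How far this unit set the medians was not tested. Hepatocyte genes had a median of 2.63 in 10 genes tested, with the high values in vehicle 7 alone, and erythrocyte genes had 0.82. The list for retinal pigment epithelium and melanocytes, with 3 of 6 members tested, had -0.26. No gene of these lists was called in the edgeR fit, 11 of their 133 genes tested (8.27%) having an unadjusted p under 0.05 in either direction, against 6.56% of all genes tested.

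The level of Ttr within the upper class offered another view. Over the 16 units, 70 of 16506 genes with a mean of at least 1 CPM had a Pearson r of 0.8 or more with Ttr on the scale log2(CPM + 0.1), and 3 had -0.8 or less. The 10 closest were Wfdc2 (0.99), Folr1 (0.97), 2900040C04Rik (0.96), Steap1 (0.96), Slc4a5 (0.95), Kcne2 (0.95), Rrh (0.94), Sult1c2 (0.94), 4933429O19Rik (0.94) and Prr32 (0.94). These correlations describe units that share the split by Ttr, and depth and RNA quality also differ among them. Over the 12 units with choroid plexus alone, Wfdc2 had 0.94, Folr1 0.96, Steap1 0.98 and Kcne2 0.96. The median r over the 59 choroid plexus genes was 0.76 in 16 units and 0.87 in these 12, against 0.17 and 0.30 over all genes tested. Following Ttr within the 12 units was not particular to these genes. Medians of the other lists there ran from -0.28 for interneurons to 0.71 for stroma and meningeal fibroblasts, with 0.65 for cilia genes. Kl had 0.78 over the 16 units and 0.87 over the 12, and Clic6 had 0.81 and 0.92.

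With log2 Ttr as a continuous covariate in place of the classes, 92 genes were called higher, 0.447% of those tested, and 8 lower (edgeR). These counts include Ttr, regressed on its own level, and both this fit and the classes use the same Ttr values. Without Ttr, the other 15 genes called higher between the classes were among the 91, as were 27 of the other 58 choroid plexus genes. Per doubling of Ttr, the log2 level of Slc4a5 was higher by 1.02 ± 0.09, Kcnj13 by 0.91 ± 0.10, Kcne2 by 0.88 ± 0.07, Folr1 by 0.77 ± 0.05, Steap1 by 0.70 ± 0.05 and Otx2 by 0.67 ± 0.09. Shallower slopes were found for Enpp2 (0.51 ± 0.06), Clic6 (0.44 ± 0.09, adjusted p = 0.0501), 1500015O10Rik (0.40 ± 0.06) and Kl (0.39 ± 0.07). A slope of 1 would mean a level proportional to Ttr only where the fitted line holds in each unit. It did not hold in each unit for Slc4a5. Per 1000 reads of Ttr this gene had 0.474 reads in lemborexant 6 and 0.507 in vehicle 4. Its median was 1.92 in the other 10 units with choroid plexus. The panels of genes along Ttr show the steep and the shallow genes.

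**Figure D3:**
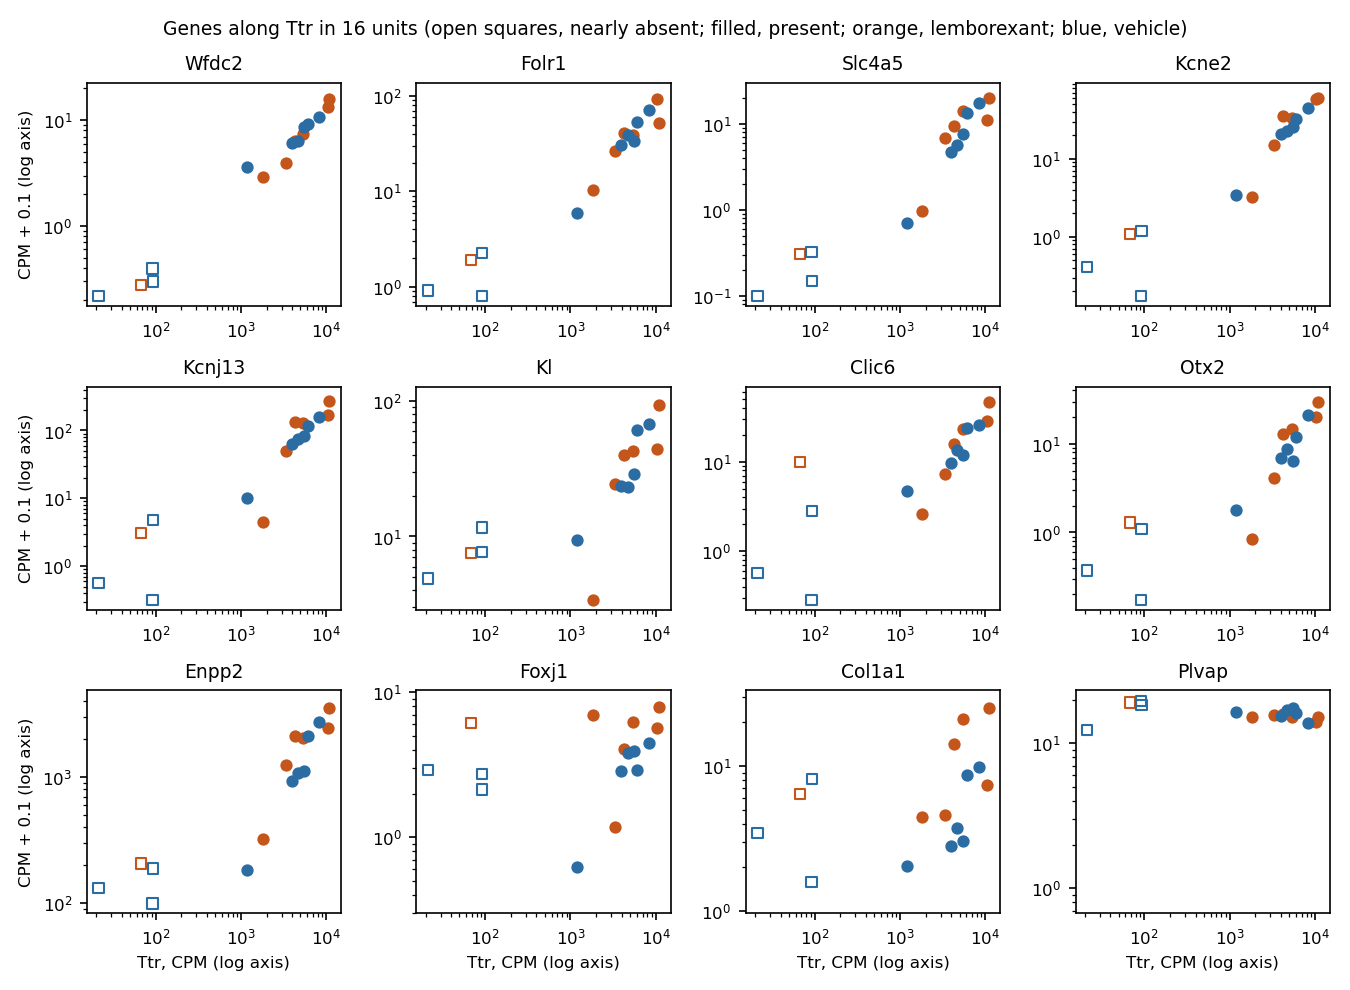
CPM + 0.1 of 12 genes against Ttr CPM, both on log axes, with 1 point for each of 16 units. Open squares are the 4 units nearly free of choroid plexus, filled circles the other 12, orange lemborexant and blue vehicle. Wfdc2 and Folr1 lie along a line, and Plvap stays between 12.2 and 19.6 CPM. Relative to Ttr, Slc4a5, Kcne2, Kcnj13 and Enpp2 are low in the 2 circles farthest to the left.

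Vehicle 4 and lemborexant 6, the 2 units just above the threshold, differed from the other 10 in the ratio of choroid plexus genes to Ttr. Per 1000 reads of Ttr, Kcnj13 had a median of 17.6 reads in the other 10 units with choroid plexus, within 15.1 to 31.4, but 2.42 in lemborexant 6 and 8.48 in vehicle 4. Cldn2 had a median of 3.51, against 0.451 and 0.980, and Kcne2 5.38, against 1.73 and 2.77. Folr1 differed less, with 8.06 (4.73 to 9.52) against 5.58 and 4.90. Wfdc2 went the other way in vehicle 4, with 1.39 (1.14 to 1.54) in the 10 units, 1.54 in lemborexant 6 and 2.94 in vehicle 4.

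Over all 58 choroid plexus genes other than Ttr, the median log2 ratio relative to the 10 units was -0.65 in lemborexant 6, with 36 below 0 and 22 above, and 0.05 in vehicle 4, with 26 below and 32 above. Many of these genes were also expressed in units nearly free of choroid plexus. The ratio was then taken over the 28 choroid plexus genes other than Ttr whose median without choroid plexus was under 15% of that in the 10 units, a limit set after the values were seen. In lemborexant 6, 22 of 28 lay below the range of the 10 units, with a median log2 ratio of -1.58. In vehicle 4 it was 13 of 28, with a median of -0.78, so that the sign for this unit depends on the limit. Short genes deviated less: up to 2000 bases the medians were -1.24 and -0.36 over 11 genes, and above that -1.65 and -1.08 over 17. Across the 28 genes, Spearman's rho of the ratio with gene length was -0.38 in lemborexant 6 and -0.44 in vehicle 4, genes not being independent replicates. Of the 11 shorter genes 5 were called between the classes, and of the 17 longer ones 2, against 0.0777% of all genes tested called higher. The 15% limit uses the same split, so nothing is read from these counts. It also uses the median of the 10 units, the reference of the ratio, and can favour ratios below 0.

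**Figure D4:**
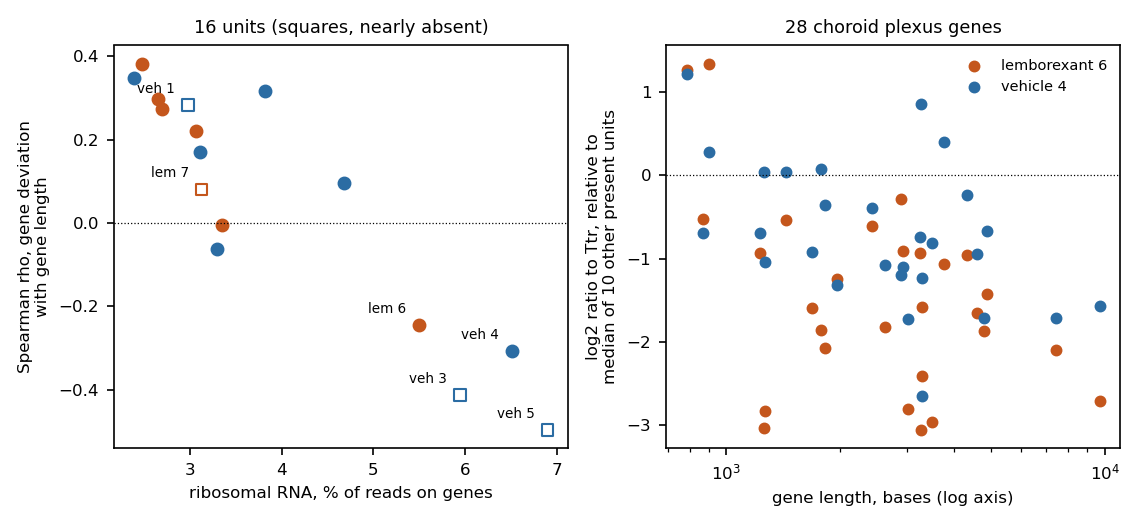
Left, for each of 16 units, the share of reads on ribosomal RNA in percent against Spearman's rho between gene length and the deviation of 16506 genes from their mean; the 4 units with the largest shares, 5.49 to 6.90%, have the lowest rho, -0.50 to -0.24. Right, the log2 ratio to Ttr of 28 choroid plexus genes in lemborexant 6 and vehicle 4, relative to the median of the other 10 units with choroid plexus, against gene length in bases on a log axis; most points lie below 0.

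The same units stood apart over all genes. The Spearman correlation of a unit's deviations with gene length, over 16506 genes, was -0.50 in vehicle 5, -0.41 in vehicle 3, -0.31 in vehicle 4 and -0.24 in lemborexant 6, and -0.06 to 0.38 in the other 12 units. Those 4 units also had the highest share of ribosomal RNA. They fall in both classes: vehicle 3 and 5 were nearly free of choroid plexus and vehicle 4 and lemborexant 6 held some. Several fits bear on these units. With the upper class from 2000 CPM, which drops vehicle 4 and lemborexant 6, 61 genes were called higher and 14 lower. Leaving out 1 of the 4 gave 37 higher and 2 lower for lemborexant 6, 31 and 8 for vehicle 4, 2 and 0 for vehicle 3 and 3 and 0 for vehicle 5. With the ribosomal share as a further covariate 20 genes were called higher and 3 lower, 13 of the 16 among them. With lemborexant 6 and vehicle 4 moved to the lower class, 310 of 20140 genes were called higher and 772 lower. The genes called higher included 43 of the 59 choroid plexus genes and 13 of the 16. That move was made after the values were seen, so nothing is read from the number of choroid plexus genes called. It also puts the 4 units with the highest ribosomal share together in the lower class.

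Another gene that varied widely in both classes was Cst7, a protease inhibitor that microglia near pathology express strongly. It was at 26.7 CPM in lemborexant 7, 0 in vehicle 1, 107 in vehicle 3 and 123 in vehicle 5, and at 0.161 to 123 CPM in the other class. With log2 Cst7 as a further covariate, 16 genes were called higher and 4 lower, 14 of the 16 among them.

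The labelled treatment was not used to form the classes, and the markers were tested against it. Of 7 lemborexant units 1 was nearly free of choroid plexus, and of 9 vehicle units 3 were. Ttr was at 68.0 to 10923 CPM in the lemborexant units, median 4272, and at 21.4 to 8348 CPM in the vehicle units, median 3963. The ranges overlapped almost entirely, and the difference in mean log2(CPM + 1) of 1.41 did not pass the test (exact two-sided permutation over 11440 splits, p = 0.357, adjusted over 5 markers 0.446). Folr1 differed by 0.96 (exact permutation p = 0.346), Kl by 0.36 (p = 0.610), Clic6 by 1.07 (p = 0.177) and Kcnj13 by 1.28 (p = 0.342), all higher in the lemborexant units and none past the threshold after adjustment.

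Between treatments, 0 of 19226 genes were called by edgeR over the 16 units, the lowest adjusted p being 0.0711, while 4101 genes (21.3%) had an unadjusted p under 0.05 and DESeq2 called 864. Leaving out the lemborexant pair 1 and 10 gave 816 calls, and leaving out lemborexant 5, lemborexant 7 or vehicle 8 gave 6, 3 and 1. Of the 59 choroid plexus genes 55 were fitted higher in the lemborexant units, with a median log2 difference of 0.62 against 0.03 over all genes. Of the 59, 9 had an unadjusted p under 0.05 in the edgeR fit, beside the 21.3% of all genes. Medians of the other lists ran from -4.23 for hepatocytes to 6.47 for hypothalamus, with 0.78 for cilia genes and 0.94 for stroma and meningeal fibroblasts. With log2 Ttr as a covariate the median of the 59 was 0.30, and still 0 of 20590 genes were called by edgeR, with 3752 (18.2%) at an unadjusted p under 0.05. An unadjusted p under 0.05 was found in both fits for 3138 genes.

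Within the 12 units that held choroid plexus, 6 of each treatment, the treatment fit called 1 of 19031 genes (0.00525%), with 2327 (12.2%) at an unadjusted p under 0.05. That gene was Agt, which encodes angiotensinogen and is made in the brain mainly by astrocytes, with a log2 difference of 0.92 ± 0.11 and an edgeR adjusted p of 0.0199. Over all 16 units Agt had a log2 difference of 1.54 ± 0.33 with an adjusted p of 0.0714. The 59 choroid plexus genes had a median of 0.37 between treatments within these 12 units, 53 of them fitted higher in lemborexant units.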

How the data were processed

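The tools named in the submitters' processing notes are bcl2fastq and DRAGEN 3.9.3-8, with the build GRCm38. Strand setting, annotation release and filtering were not given in the sources used here. Whether genes that overlap on opposite strands can be told apart is therefore not known. The deposited tables give, per the file headers, an estimated count and a TPM value for each of 55487 genes. The authors' estimated counts were rounded to whole numbers, and the deposited TPM values, relative to library total and gene length, served for alternatives only. Symbols and positions came from GENCODE M21, which named 55141 identifiers. CPM is the estimated count per 1000000 on genes, without further scaling.

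Class and treatment fits used the quasi-likelihood F test of edgeR 4.0.16 under R 4.3.3, two-sided, with filterByExpr, TMM scaling, a robust dispersion fit, Benjamini-Hochberg adjustment over all genes tested and a threshold of 0.05. The SE of a log2 difference was derived as its absolute value over the root of F. The biological coefficient of variation was 0.337 in the class fit. Fits left out no unit unless stated, and none was imputed. Single values were tested by exact permutation in Python 3.11.15. At the lowest total, a gene at 1 CPM has about 20 reads. Several called genes lay far below that in the units nearly free of choroid plexus, such as Aqp1 at 0.0703 to 0.248 CPM and Rrh at 0 to 0.0703 CPM. Their log2 differences rest on few reads in that class. Whether few reads or the spread between units limits a comparison was not tested. The class fit was also run on simulated counts of 20269 genes. It found 59% of the 100 genes given a 2-fold difference and 96% of the 100 given a 4-fold difference, and 2 of its 157 calls were false. These rates do not carry over to choroid plexus genes in the real units. There, 39 of 59 were more than 2-fold higher and 8 were called. Cldn3, Kcnj13 and Cldn2, with log2 differences of 6.19, 5.54 and 5.03, were not among those called.

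Genes named are the 5 markers, up to 4 called and 2 other members of each list, the 20 largest higher and 8 largest lower called genes with a mean of at least 1 CPM, and the 10 following Ttr most closely. The 2 other members were taken by smallest p, which was decided after the tables were seen, and further list members are named for their role. The classes, the 25 lists and their 258 members were chosen with earlier results of these data known. Alternatives were DESeq2 1.42.0, RLE scaling, a fit of unfiltered genes, limma 3.58.1 on log2 TPM with 1 or 0.1 added (mean TPM of 1 or more), other ways to form the classes, libraries left out, and other covariates; 3 of them, moving lemborexant 6 and vehicle 4, Cst7 and the ribosomal share, were added after seeing the data.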

Additional observations from a re-analysis of the deposited data

Results flagged for a closer look

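A gene in a treatment group was singled out where its highest or lowest unit lay unusually far from the other units of the group (Dixon's test at 95%). Among unselected genes about 5% would be singled out by chance. Many of the 67 named genes were chosen by differences between these same units, so that share is no measure here. Of 134 such tests over the 67 genes, 15 were singled out.

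Lemborexant 7 accounted for 6 of them. Its Ttr, at 68.0 CPM, lay far below the other lemborexant units, as did Slc17a7, a glutamate transporter of cortical neurons, at 16.7 CPM. Rasgrf2, a gene of upper-layer neurons, lay far above them at 131 CPM, as did Agrp at 28.8 CPM, Oxt at 156 CPM and Calcr at 21.97 CPM, the last 3 being expressed in hypothalamus.

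Vehicle 7 stood above the other vehicle units in the hepatocyte genes Fgg, at 102 CPM, and Ahsg, at 119 CPM, and in Tdo2, at 25.4 CPM. The lemborexant pair 1 and 10 lay far from its group in C4b, a complement gene, at 58.8 CPM, and in Fgg, at 0.266 CPM. Lemborexant 6 did so in Dct, a melanin enzyme, at 19.8 CPM. Among vehicle units, vehicle 1 lay apart in Iyd at 2.63 CPM, vehicle 5 in Nwd2 at 4.95 CPM and vehicle 4 in Calcr at 0.0807 CPM. Why these units stood apart was not tested.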

How the results depend on the processing

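Of the alternatives to the class comparison (16 genes higher, 1 lower), RLE factors gave 16 and 1. The number higher and lower was 91 and 25 with DESeq2, 35 and 22 with all libraries counted separately, 61 and 14 with the upper class from 2000 CPM, 92 and 8 with log2 Ttr as a continuous covariate, 7 and 0 with log2(TPM + 1), 17 and 0 with log2(TPM + 0.1), 24 and 5 without the treatment covariate, 11 and 16 without the expression filter, and 25 and 4 at an adjusted p of 0.1. It was 2 and 0 without lemborexant 7 and vehicle 7, 3 and 0 with library numbers from 1064 alone, 310 and 772 with lemborexant 6 and vehicle 4 moved to the lower class, 16 and 4 with Cst7 and 20 and 3 with the ribosomal share as covariates. Leaving out 1 unit at a time gave 2 to 37 higher and 0 to 8 lower. None of the 16 genes and Calcr changed direction where fitted under these; the cause of the differing counts was not tested. Without a library between 300 and 1000 CPM, moving such libraries to either class gives the same units and was not run.

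Between treatments, 0 genes called became 864 with DESeq2, 1 within the units with choroid plexus and 0 to 816 with 1 unit left out. The 5 markers stayed short of the threshold with TPM and with all libraries counted separately. No paired analysis was possible because the labels give no replicate numbers shared between groups. The 4 units of the lower class limit the class comparison, and its counts of genes moved widely.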

Other observations

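Among the 26 genes with every unit with choroid plexus above every unit nearly free of it, some are not described above. They included Cltrn, a collectrin of epithelial membranes, at 0 to 0.149 CPM without and 0.348 to 2.52 CPM with choroid plexus, and Prcd, named for a form of retinal degeneration, at 2.61 to 3.92 CPM against 4.68 to 18.01 CPM. Ints14, a subunit of the Integrator complex, was also separated, at 19.2 to 23.3 CPM against 23.4 to 29.8 CPM, with a log2 difference of 0.28 ± 0.08. These were picked after their values were seen. Gm44044, a gene model without a known product, was the 1 gene below throughout, at 0.482 to 0.545 CPM without and 0.127 to 0.475 CPM with choroid plexus.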
